A study of Mus musculus with 16 samples.

Results

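The genes described here are 8 executioners of regulated cell death: *Apaf1*, *Casp9* and *Cycs* of the apoptosome, the caspase inhibitor *Xiap* and its antagonist *Diablo*, the necroptosis genes *Ripk3* and *Mlkl*, and the pyroptosis gene *Gsdmd*. They were chosen by name, and all 8 were found among the 53679 genes of the table, with 55 isoforms whose FPKM were summed for each gene. FPKM are fragments per kilobase of isoform, scaled for the number of reads in the library, so levels can be compared between genes per length. The cultures were primary cortical neurons (PNCs) from wild-type mouse embryos at embryonic day 15. CONTROL-VEH cultures received vehicle (called untreated in the sample labels) on day 8 in vitro (8 DIV) and a sham exchange on 9 DIV, CONTROL-TIA cultures received 10 μM of the antidepressant tianeptine (TIA) in place of vehicle, OGD-VEH cultures received vehicle and then 3 h of oxygen-glucose deprivation (OGD), and OGD-TIA cultures received TIA and then OGD. RNA was taken 6 h after OGD or sham from 16 cultures, 4 per group (CONTROL-VEH 1 to 4, CONTROL-TIA 5 to 8, OGD-VEH 9 to 12, OGD-TIA 13 to 16), at an estimated depth of 20.5 to 26.0 M reads per culture. The study calls the cultures of a group biological replicates but the sources used here do not tie them to separate dissections, so p-values measure the spread between these cultures.

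In the mitochondrial route of apoptosis, cytochrome c (*Cycs*) leaves the mitochondria and binds APAF1, which assembles into the apoptosome and activates the initiator caspase-9. XIAP holds caspases in check, and DIABLO (also named SMAC), released together with cytochrome c, takes XIAP off them. Necroptosis and pyroptosis are lytic forms of death: RIPK3 phosphorylates MLKL, which then breaches the plasma membrane, while inflammatory caspases cut gasdermin D (*Gsdmd*) into a fragment that forms pores. All of these proteins are controlled mainly by release, assembly, phosphorylation or cleavage, none of which RNA levels show.

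The 8 genes fell into separate ranges of expression. *Diablo* (mean 69.3 FPKM over the 16 cultures), *Cycs* (59.5 FPKM) and *Apaf1* (52.9 FPKM) had the highest summed levels, with ranges that overlapped, and *Diablo* was above *Cycs* in 11 of 16 cultures and *Cycs* above *Apaf1* in 8. *Xiap* (22.1 FPKM) lay below *Apaf1* and above *Casp9* (14.1 FPKM) in all 16 cultures. This order is that of sums over all isoforms, in which short non-coding transcripts weigh heavily. Over protein-coding isoforms only, the group means were 24 to 30.1 FPKM for *Diablo*, 12.8 to 19.7 for *Xiap*, 10.9 to 14.1 for *Cycs*, 9.71 to 11 for *Casp9* and 9.42 to 11.9 for *Apaf1*, so *Xiap* lay above *Apaf1* in every group mean. *Ripk3* (0.200 FPKM), *Gsdmd* (0.104 FPKM) and *Mlkl* (0.0692 FPKM) had mean levels under 0.5 FPKM, the minimum for the main test, and their ranges overlapped with each other but not with those of the other genes. The 5 apoptosis genes thus passed the filter on low values and the 3 genes of lytic death did not. The expressed genes were above 65.6% (*Casp9*) to 86.9% (*Diablo*) of protein-coding genes in the table.

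Promoter sequence also differed between these ranges. RefSeq promoters of GRCm38 were matched by symbol for 7 of the 8 genes, and CG dinucleotides (CpG, which form CpG islands where they are dense) were counted in the 250 bases before each start. *Apaf1* had 42 CpG, *Diablo* 30, *Casp9* 25 and *Cycs* 23, *Ripk3* had 8 and *Mlkl* 5, while *Xiap* had 13 at one of 3 starts and 1 at each of the others. Over all 32851 promoters of this length the median was 6, and 37.8% held at least 10 CpG. Taking for each gene only the promoter with the most CpG, the share was 78.4% for genes whose mean reached 0.5 FPKM and 13.8% for genes under it. By that rule, under which *Xiap* counts with 13, the split between the members followed that of genes at large. The promoters with the most and the fewest CpG, apart from those of *Xiap*, are shown 5′ to 3′ in the direction of the gene, on the minus strand of GRCm38 at chr10:91082744-91082993 (*Apaf1*) and chr8:111338206-111338455 (*Mlkl*), with every CpG in capitals; the last bases of the *Apaf1* stretch lie within the GENCODE transcript, whose start differs from that of RefSeq.
Apaf1: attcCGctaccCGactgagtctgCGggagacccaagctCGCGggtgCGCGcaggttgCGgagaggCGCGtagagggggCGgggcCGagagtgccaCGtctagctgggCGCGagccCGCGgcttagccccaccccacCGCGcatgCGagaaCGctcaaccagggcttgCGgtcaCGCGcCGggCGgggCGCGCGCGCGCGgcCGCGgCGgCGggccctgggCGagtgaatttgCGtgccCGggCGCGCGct
Mlkl: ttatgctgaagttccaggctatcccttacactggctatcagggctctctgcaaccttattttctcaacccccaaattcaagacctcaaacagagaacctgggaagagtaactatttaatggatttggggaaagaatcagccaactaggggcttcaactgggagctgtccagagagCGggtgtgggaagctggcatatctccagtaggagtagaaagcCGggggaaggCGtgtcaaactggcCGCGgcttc

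**Figure D1:**
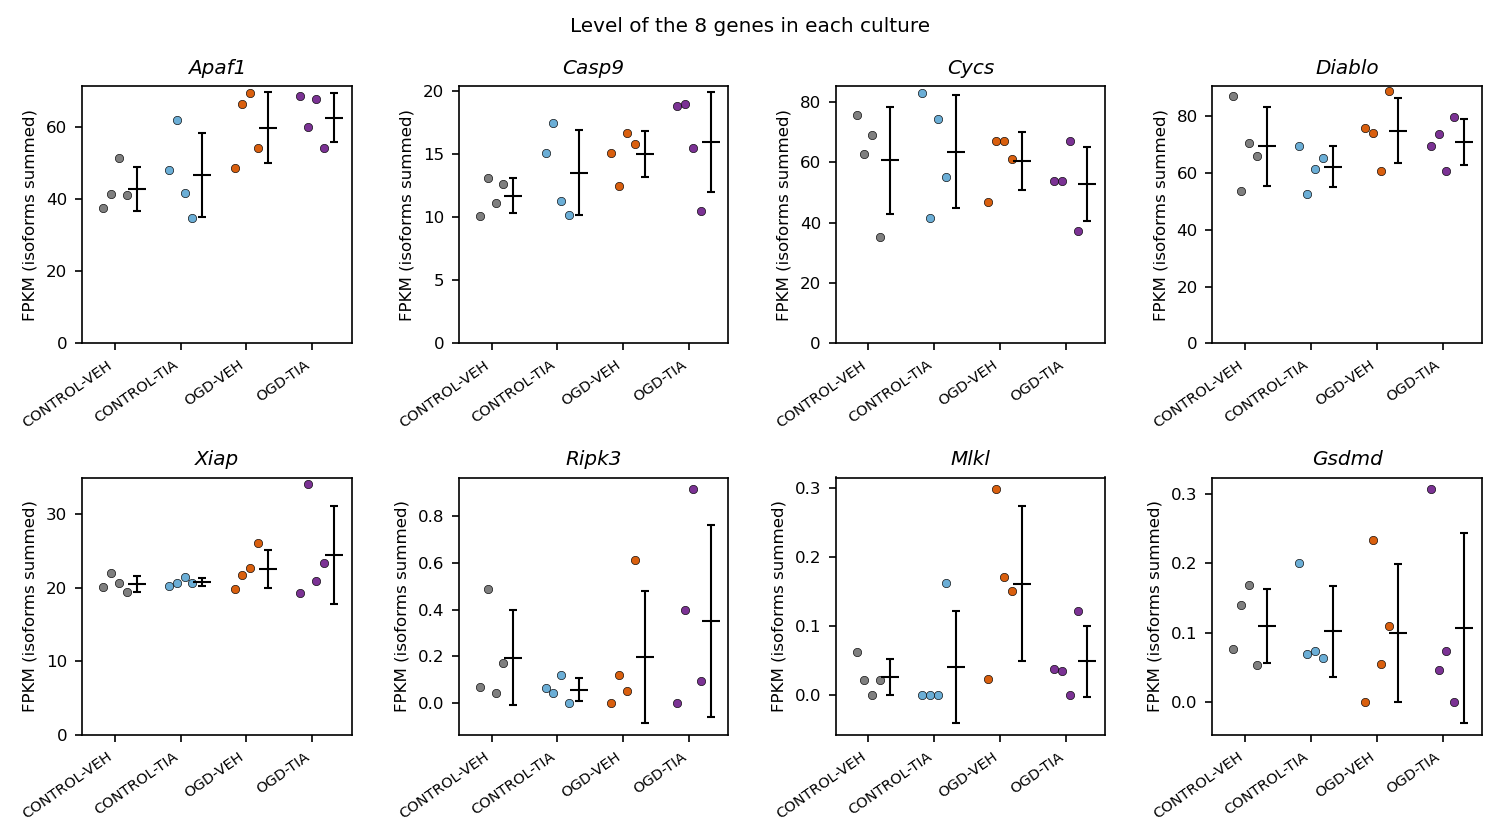
FPKM of each of the 8 genes (isoforms summed, linear axis) in the 16 cultures by group, with points for cultures and black bars for the mean and SD of 4 cultures, which can reach below 0 for the low genes. *Apaf1* means were 59.7 and 62.6 FPKM in the OGD groups against 42.8 and 46.6 FPKM in the controls, while *Ripk3*, *Mlkl* and *Gsdmd* stayed under 1 FPKM in every culture.

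*Apaf1*, on chromosome 10 from 90989311 to 91082770 (minus strand, GRCm38), rose after OGD averaged over both arms, and was the 1 member of 8 that did. Its level was 37.4, 41.3, 51.5 and 41.1 FPKM in CONTROL-VEH 1 to 4 and 48.7, 66.5, 69.5 and 54.3 FPKM in OGD-VEH 9 to 12. With TIA it was 48.0, 62.0, 41.7 and 34.7 FPKM in CONTROL-TIA 5 to 8 and 68.7, 59.9, 67.7 and 54.2 FPKM in OGD-TIA 13 to 16. In the vehicle arm 3 of 4 OGD cultures lay above every control, and in the TIA arm 2 of 4 did, so the groups overlapped in both. The averaged log2 fold change was 0.46 (1.38-fold, standard error 0.12, 95% interval 0.22 to 0.71, padj = 0.00967 from limma), against a median of 0.08 over all genes. A two-sided exact permutation test within the arms gave p = 0.00286. Of all 16313 genes, 32.1% had a padj of at most 0.05 in this comparison and 4.78% also at least a 2-fold change in either direction, which *Apaf1* did not reach. That background covers genes that passed the filter on low values, as 5 of the 8 members did. With 1 of these 5 called, the members are too few to place above or below it.

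Within the arms, *Apaf1* did not pass. Its log2 fold change was 0.47 between OGD-VEH and CONTROL-VEH (95% interval 0.12 to 0.83, padj = 0.0755 from limma, exact permutation p = 0.0571) and 0.45 between OGD-TIA and CONTROL-TIA (95% interval 0.05 to 0.86, padj = 0.222 from limma, exact permutation p = 0.0857). The OGD effects with and without TIA differed by -0.02 (95% interval -0.54 to 0.49, padj = 0.98 from limma for the interaction). The call in the vehicle arm depended on 1 culture and on the settings: without OGD-VEH 9, the log2 fold change was 0.57 with a padj of 0.026 from limma, and array quality weights gave 0.62 and 0.00813. Calls over all genes in this arm rose as well, from 1380 to 4991 without OGD-VEH 9 and to 6344 with the weights. The call averaged over the arms held in each of the 16 fits that left out 1 culture, with log2 fold changes of 0.40 to 0.53.

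Cell type markers moved between the same groups, and in bulk RNA fewer cells of a type cannot be told apart from less RNA per cell. The summed FPKM of 9 neuronal markers was 2028 to 2687 in CONTROL-VEH and 1040 to 1886 in OGD-VEH, and 2086 to 2279 in CONTROL-TIA and 1312 to 2112 in OGD-TIA. The sum of 8 oligodendrocyte lineage markers was 177 to 213 in CONTROL-VEH, 244 to 676 in OGD-VEH, 159 to 194 in CONTROL-TIA and 225 to 438 in OGD-TIA. For 8 astrocyte markers the sums were 753 to 1614, 1011 to 2532, 657 to 874 and 752 to 1934 FPKM in the same order, and for 12 markers of microglia and macrophages 2.89 to 5.88, 10.9 to 15.8, 2.66 to 5.56 and 4.53 to 11.8 FPKM. Most of the last of these sums was *Cd68*, a lysosomal protein of phagocytes (2.53 ± 1.48 FPKM in CONTROL-VEH against 12.1 ± 1.92 in OGD-VEH, limma log2 fold change 2.34, padj = 0.0281, and 0.94 over protein-coding isoforms only), while *Aif1*, the other marker above the filter, was at 0.838 ± 0.543 and 0.604 ± 0.342 FPKM. Of these 12, 10 had means under 0.5 FPKM, among them *Cx3cr1*, *P2ry12*, *Tmem119* and *Csf1r*, and so did all 6 endothelial markers and 5 of 7 fibroblast and mural cell markers; no marker was at 0 in all 16 cultures. Of 9 neuronal markers, 0 were higher and 6 lower with OGD averaged over the arms (limma, padj at most 0.05). Of 7 oligodendrocyte markers tested, 5 were higher and 1 lower, and of 8 astrocyte markers, 2 were higher and 0 lower. Of 2 markers of microglia and macrophages tested, 1 was higher and 0 lower. Of 2 fibroblast and mural cell markers tested, 0 were higher and 1 lower. Among all genes, 32.1% were called in this comparison. The part of these shifts in the level of *Apaf1* was not tested.

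The isoform estimates of *Apaf1* depend on how reads were split between transcripts. Most of its FPKM came from Apaf1-204, a 2-exon processed transcript of 511 bases (no open reading frame annotated) that held 67.3% of the gene's FPKM but 18.9% of its estimated reads. Apaf1-202 and Apaf1-201, the 27-exon protein-coding isoforms of 6433 and 6577 bases, held 13.1 and 6.57% of the FPKM but 50.5 and 26.0% of the reads. Summing FPKM therefore gave most weight to a short transcript, 89.6% of whose 50-base words also occur in other isoforms of the gene, and 50-base reads cannot place such words. The same holds for 6382 of the 6384 words of Apaf1-202 and all 6528 of Apaf1-201. Apaf1-204 has 462 words in all, so most words of these long isoforms do not occur in it. How the difference divides between isoforms that share words rests on the split of reads. With OGD averaged over the arms, 2 of 20 member isoforms tested were called, against 8.14% of all isoforms, and both were of *Apaf1* (a test added after the data were seen). Apaf1-204 rose by 0.55 on the log2 scale (limma padj = 0.0234, standard error 0.13). Apaf1-202 rose by 0.27 (limma padj = 0.0396, standard error 0.07). Leaving out 1 culture at a time, the call of Apaf1-204 held in 14 of 16 fits, failing without OGD-VEH 10 or OGD-VEH 11 (padj of up to 0.0528), but that of Apaf1-202 in only 2 of 16, those without CONTROL-TIA 5 or OGD-VEH 9 (padj of up to 0.0810 in the others, log2 fold changes 0.25 to 0.30). Apaf1-202 was at 6.84, 6.76, 7.17 and 6.63 FPKM in CONTROL-VEH 1 to 4, 6.99, 8.61, 8.15 and 8.14 FPKM in OGD-VEH 9 to 12, 6.18, 5.33, 5.52 and 5.82 FPKM in CONTROL-TIA 5 to 8, and 7.31, 7.64, 7.09 and 6.58 FPKM in OGD-TIA 13 to 16. Its levels overlapped between the vehicle groups and were separate between the TIA groups. In the TIA arm 16.2% of all genes were separate in their summed levels, and the share of isoforms was not counted. The levels of Apaf1-201 overlapped in the TIA arm, with a mean of 3.64 FPKM in both groups (3.07 to 4.09 FPKM in CONTROL-TIA and 2.76 to 4.20 FPKM in OGD-TIA). Summed over protein-coding isoforms only, *Apaf1* rose by 0.25 on the log2 scale averaged over the arms (95% interval 0.12 to 0.37, padj = 0.00589 from limma), and with isoforms weighted by length by 0.31 (padj = 0.00146 from limma), against 0.46 for the sum of FPKM.

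**Figure D2:**
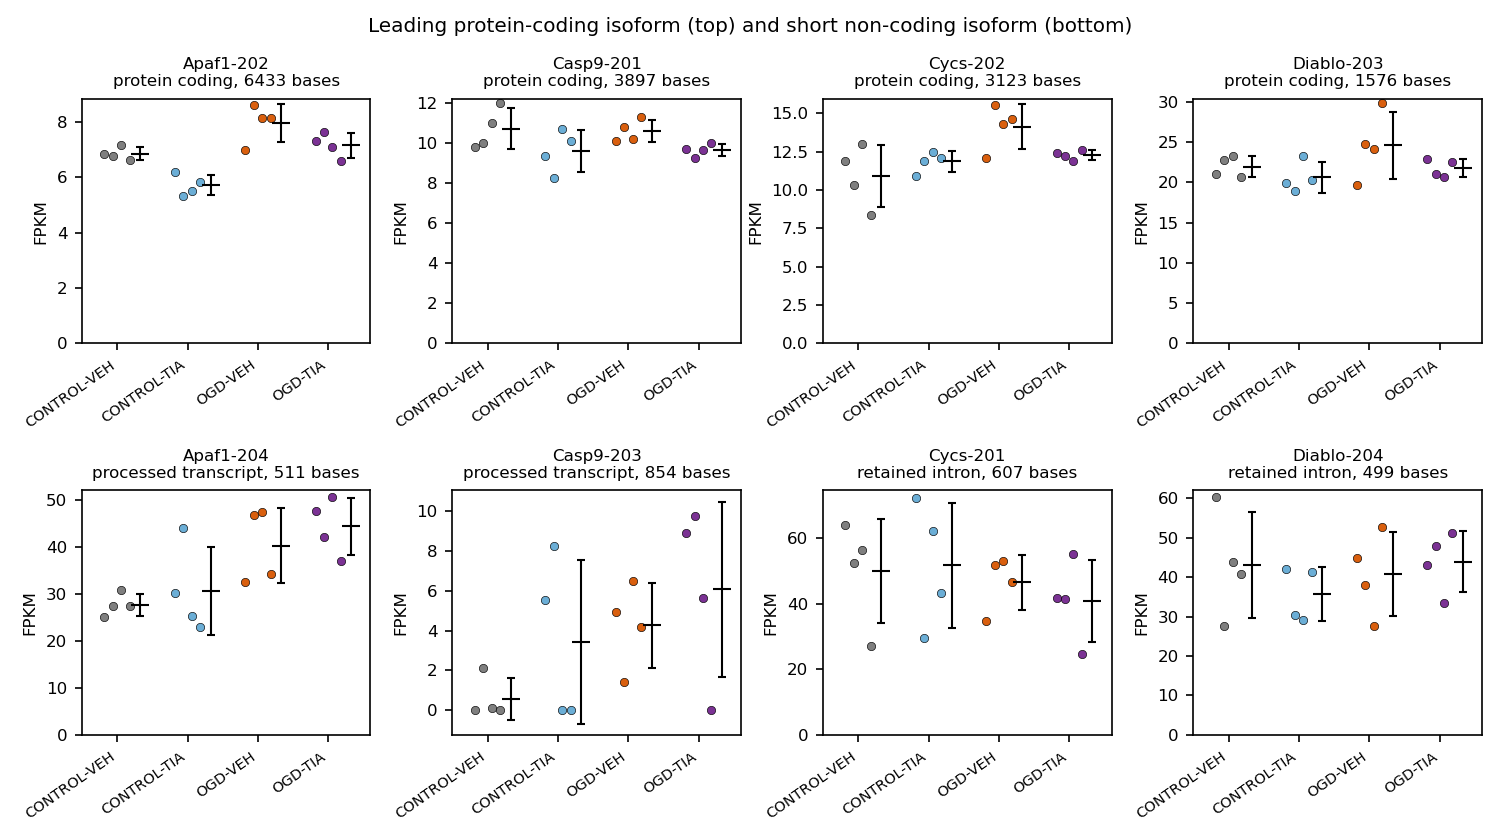
FPKM (linear axis) of the leading protein-coding isoform (top row) and the leading short non-coding isoform (bottom row) of *Apaf1*, *Casp9*, *Cycs* and *Diablo* in each culture, with black bars for the mean and SD of 4 cultures. Casp9-201 stayed between 8.24 and 12 FPKM, while Casp9-203 ranged from 0 to 9.75 FPKM.

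*Casp9*, which encodes the caspase that APAF1 activates, lies on chromosome 4 from 141793612 to 141815976 (plus strand). Its summed level was 10.1, 13.1, 11.1 and 12.6 FPKM in CONTROL-VEH 1 to 4 and 15.1, 12.5, 16.7 and 15.8 FPKM in OGD-VEH 9 to 12. In the TIA arm it was 15.1, 17.5, 11.3 and 10.2 FPKM in CONTROL-TIA 5 to 8 and 18.8, 19.0, 15.5 and 10.5 FPKM in OGD-TIA 13 to 16. Of the OGD-VEH cultures, 3 of 4 lay above every CONTROL-VEH culture, and OGD-TIA 16 was within the range of the controls. The difference did not pass between OGD-VEH and CONTROL-VEH (log2 fold change 0.35, 95% interval 0.03 to 0.68, padj = 0.12 from limma), between OGD-TIA and CONTROL-TIA (0.23, 95% interval -0.32 to 0.78, padj = 0.608), or averaged over the arms (0.29, standard error 0.14, padj = 0.117). Without OGD-TIA 16 the averaged log2 fold change was 0.38 with a padj of 0.0321 from limma.

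The estimate for the full-length *Casp9* transcript varied little between the groups. Casp9-201, with 9 exons and 3897 bases, held 92% of the estimated reads of the gene and had a log2 fold change of -0.01 between OGD-VEH and CONTROL-VEH (95% interval -0.30 to 0.28, padj = 0.971 from limma). Its levels were 9.79 to 12 FPKM in CONTROL-VEH, 10.1 to 11.3 FPKM in OGD-VEH, 8.24 to 10.7 FPKM in CONTROL-TIA and 9.22 to 9.98 FPKM in OGD-TIA. The isoform that varied was Casp9-203, a 3-exon processed transcript of 854 bases at the end of the gene, 88.1% of whose 50-base words occur in other *Casp9* isoforms. Casp9-203 was listed at 0, 2.14, 0.117 and 0.002 FPKM in CONTROL-VEH 1 to 4, 4.92, 1.42, 6.50 and 4.20 FPKM in OGD-VEH 9 to 12, 5.54, 8.24, 0 and 0 FPKM in CONTROL-TIA 5 to 8, and 8.91, 9.75, 5.63 and 0.002 FPKM in OGD-TIA 13 to 16. It was near 0 in 6 cultures of 3 groups and above 1 FPKM in the other 10, and the difference between OGD-VEH and CONTROL-VEH did not pass (padj = 0.147 from limma). Over protein-coding isoforms only, *Casp9* differed by -0.03 on the log2 scale in the vehicle arm (95% interval -0.28 to 0.22) and by -0.03 averaged over the arms (95% interval -0.16 to 0.11), so a change of the coding transcripts by more than 0.28 in the vehicle arm, in either direction, lies outside the interval.

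*Cycs*, on chromosome 6 from 50562563 to 50566538 (minus strand), shares its coding sequence with another annotated gene, and its value depends on how reads were split between them. The 315 coding bases of *Cycs*, without the stop codon, are the same in the protein-coding gene *Gm10053* on chromosome 19, with 0 differences, and all 266 of its 50-base words occur in both. The opening 120 bases of both are shown because no 50-base read from them can be assigned, at chr6:50565541-50565660 (minus strand) for *Cycs* and chr19:24875753-24875872 (plus strand) for *Gm10053* in GRCm38, with the codons of the cysteine and histidine motif that attaches heme in capitals.
Cycs: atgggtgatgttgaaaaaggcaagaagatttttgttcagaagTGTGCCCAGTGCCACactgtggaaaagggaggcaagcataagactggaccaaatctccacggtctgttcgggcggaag
Gm10053: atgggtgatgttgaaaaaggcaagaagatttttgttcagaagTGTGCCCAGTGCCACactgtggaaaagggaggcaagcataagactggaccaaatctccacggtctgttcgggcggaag

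The levels of *Cycs* varied widely within every group. It was at 75.7, 62.8, 69.2 and 35.3 FPKM in CONTROL-VEH 1 to 4 and 46.8, 67.1, 67.2 and 61.2 FPKM in OGD-VEH 9 to 12. With TIA the values were 83.0, 41.5, 74.5 and 55.2 FPKM in CONTROL-TIA 5 to 8 and 53.9, 53.7, 67.1 and 37.2 FPKM in OGD-TIA 13 to 16. The groups overlapped in each comparison, and the coefficient of variation over the 16 cultures, 23.7%, was the highest of the 5 expressed members. Between OGD-VEH and CONTROL-VEH the log2 fold change was 0.04 (95% interval -0.52 to 0.60, padj = 0.925 from limma), and averaged over the arms it was -0.10 (95% interval -0.49 to 0.29, padj = 0.695). *Gm10053* was listed at 97.2 to 144 FPKM, above *Cycs* in every group mean, and was at 121 ± 16.6 FPKM in the CONTROL-VEH cultures and 139 ± 6.39 FPKM in OGD-VEH (SD, n = 4). With *Gm10053* added to *Cycs*, the log2 fold change averaged over the arms was 0.06 (95% interval -0.14 to 0.27, padj = 0.641 from limma). Most of the FPKM of *Cycs*, 79.3%, lay in Cycs-201, a retained-intron transcript of 607 bases of whose 50-base words 49.8% occur in other genes. The protein-coding isoform Cycs-202 (3123 bases) held 58.9% of the estimated reads and ranged from 8.36 to 15.5 FPKM, and its log2 fold change of 0.38 between OGD-VEH and CONTROL-VEH did not pass (95% interval -0.01 to 0.78, padj = 0.276 from limma).

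*Xiap*, on chromosome X from 42059679 to 42109656 (plus strand), was the steadiest of the apoptosis genes in the controls in the sums of all isoforms. Its levels were 20.1, 22.0, 20.7 and 19.4 FPKM in CONTROL-VEH 1 to 4 and 20.2, 20.7, 21.5 and 20.6 FPKM in CONTROL-TIA 5 to 8. After OGD they were 19.9, 21.8, 22.7 and 26.1 FPKM in OGD-VEH 9 to 12 and 19.3, 34.2, 21 and 23.4 FPKM in OGD-TIA 13 to 16. The coefficient of variation was 5.41% in CONTROL-VEH and 2.59% in CONTROL-TIA against 11.5% in OGD-VEH and 27.3% in OGD-TIA, where OGD-TIA 14 stood above the rest; the difference in spread was not tested. The log2 fold change was 0.13 in the vehicle arm (95% interval -0.14 to 0.41, padj = 0.456 from limma) and 0.17 averaged over the arms (95% interval -0.04 to 0.38, padj = 0.208). In OGD-TIA 14 the short isoform Xiap-205 (487 bases), listed at 0 in 13 of the 16 cultures, had 12.2 FPKM. Over protein-coding isoforms only, *Xiap* was not the steadiest in the controls. It was at 12.8 ± 1.86 FPKM in CONTROL-VEH and 13.5 ± 3.28 FPKM in CONTROL-TIA, where *Apaf1* was at 9.65 ± 0.393 and 9.42 ± 0.295 FPKM (SD, n = 4). The processed transcript Xiap-207 held 31.8% of the *Xiap* FPKM, and 99.1% of its 50-base words occur in other *Xiap* isoforms.

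*Diablo*, on chromosome 5 from 123509765 to 123524176 (minus strand), was expressed above its target *Xiap* in every culture. It was at 87.2, 53.8, 70.5 and 65.8 FPKM in CONTROL-VEH 1 to 4 and 75.7, 74.2, 60.7 and 88.8 FPKM in OGD-VEH 9 to 12. With TIA the values were 69.4, 52.7, 61.4 and 65.3 FPKM in CONTROL-TIA 5 to 8 and 69.6, 73.6, 60.5 and 79.8 FPKM in OGD-TIA 13 to 16. The groups of summed values overlapped, with a log2 fold change of 0.12 in the vehicle arm (95% interval -0.27 to 0.51, padj = 0.649 from limma), 0.19 in the TIA arm (95% interval -0.09 to 0.46, padj = 0.406) and 0.15 averaged over the arms (95% interval -0.07 to 0.37, padj = 0.267). With isoforms weighted by length the averaged value was 0.17 with a padj of 0.0411 from limma. Over protein-coding isoforms only, the vehicle groups were separate, at 22.3 to 25.2 FPKM in CONTROL-VEH and 26.8 to 32.3 FPKM in OGD-VEH (0.32, 95% interval 0.10 to 0.54, padj = 0.0551 from limma), while the TIA arm differed by 0.00 (95% interval -0.22 to 0.23). In sums of all isoforms, the vehicle groups were separate for 22.7% of all genes, and the share over protein-coding isoforms was not counted. The protein-coding sums of *Diablo* include Diablo-209 (748 bases), listed at 0 in 8 of 16 cultures. Its means were 0.637 and 3.12 FPKM in CONTROL-VEH and OGD-VEH, and 0.587 and 0.000750 FPKM in CONTROL-TIA and OGD-TIA. Of its 50-base words, 86.3% occur in another gene. Its part in the differences was not tested. Diablo-203, the leading protein-coding isoform, differed by 0.15 between the vehicle groups (95% interval -0.18 to 0.48, padj = 0.604 from limma). The retained-intron transcript Diablo-204 (499 bases) held 59.0% of the FPKM and the protein-coding Diablo-203 (1576 bases) 54.7% of the estimated reads. *Diablo* also shares exons with *Gm49027*, an overlapping gene on the same strand (mean 2.86 FPKM) that contains 72.0% of the 50-base words of Diablo-203.

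**Figure D3:**
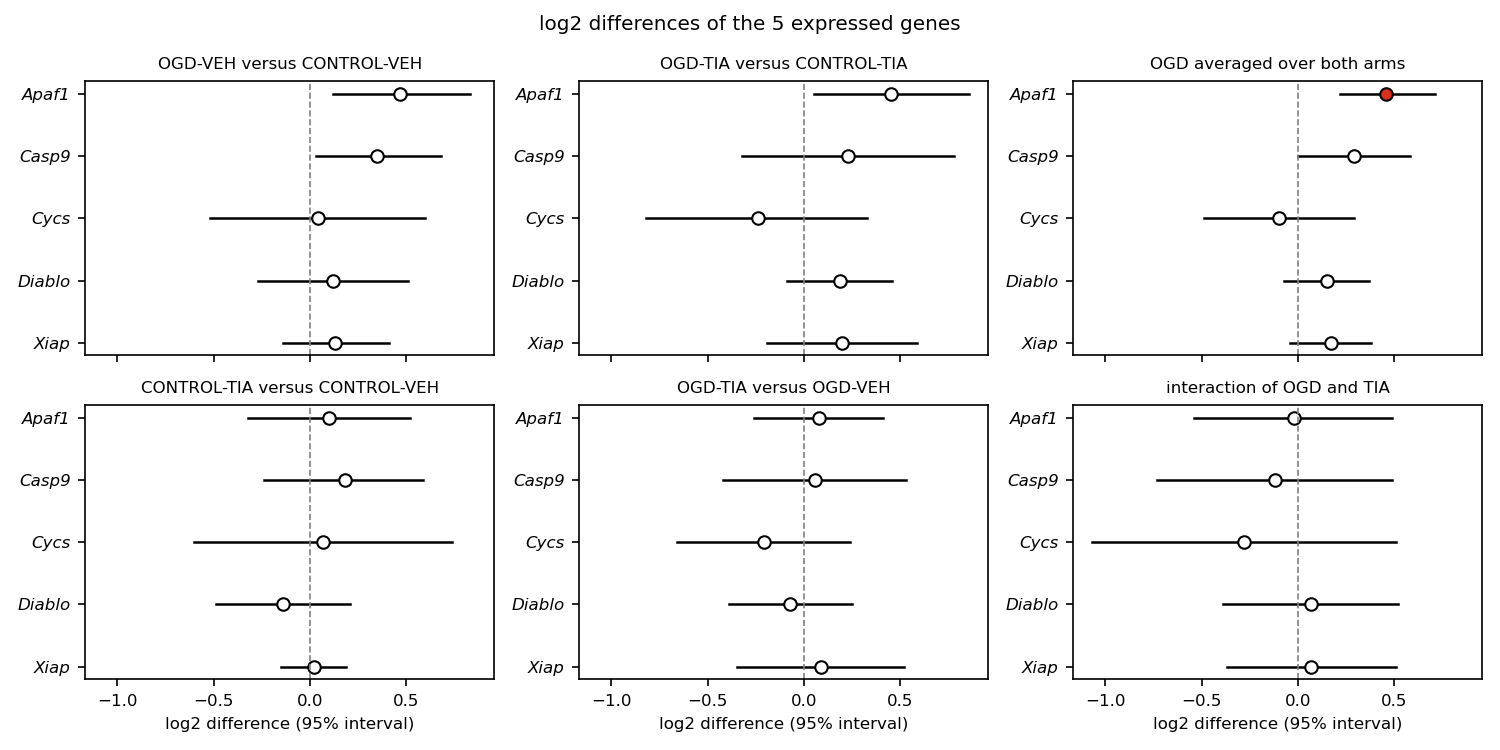
log2 differences (points) with 95% intervals (lines) of the 5 expressed genes in 6 comparisons, the interaction being the difference between the OGD effects of the TIA and vehicle arms. The 1 filled point marks *Apaf1* with OGD averaged over both arms (padj = 0.00967 from limma); no other point had a padj of at most 0.05.

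The necroptosis genes were at the edge of detection. *Ripk3*, on chromosome 14 from 55784995 to 55788865 (minus strand), had an estimated 0 to 9 reads per culture and 53 in all 16, and was listed at 0 in 3 cultures. Its levels were 0.071, 0.487, 0.044 and 0.172 FPKM in CONTROL-VEH 1 to 4, 0.066, 0.045, 0.122 and 0 FPKM in CONTROL-TIA 5 to 8, 0, 0.120, 0.053 and 0.612 FPKM in OGD-VEH 9 to 12, and 0, 0.397, 0.915 and 0.095 FPKM in OGD-TIA 13 to 16. The values above 0.3 FPKM occurred in 3 of the groups and rested on 5 to 9 reads each. Short retained-intron transcripts, Ripk3-207 and Ripk3-206, held 47.4 and 27.0% of the *Ripk3* FPKM. A floor of 3 reads on the longest protein-coding isoform corresponds to 0.0602 to 0.0763 FPKM, and 8 of 16 cultures had fewer than 3 reads.

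*Mlkl*, on chromosome 8 from 111311797 to 111338177 (minus strand), had an estimated 45 reads over the 16 cultures, of which OGD-VEH 10, 11 and 12 held 13, 8 and 7. Its levels were 0.062, 0.022, 0 and 0.022 FPKM in CONTROL-VEH 1 to 4 and 0.024, 0.298, 0.171 and 0.151 FPKM in OGD-VEH 9 to 12. In CONTROL-TIA 5 to 8 they were 0, 0, 0 and 0.162 FPKM, and in OGD-TIA 13 to 16 they were 0.038, 0.035, 0 and 0.122 FPKM. OGD-VEH 10, 11 and 12 lay above every CONTROL-VEH culture and OGD-VEH 9 within their range. Without a filter on low values, the comparison of OGD-VEH with CONTROL-VEH gave a padj of 0.166 from limma (exact permutation p = 0.0571). Leaving out OGD-VEH 9 gave a padj of 0.0224 from limma, so 1 culture decided the call. Calls over all genes, counted with the filter, also rose without that culture, from 1380 to 4991. No fold is given because 4 of 4 CONTROL-VEH cultures had fewer than 3 estimated reads.

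*Gsdmd*, on chromosome 15 from 75862327 to 75867408 (plus strand), had an estimated 0 to 6 reads per culture and 41 in all. It was at 0.076, 0.140, 0.169 and 0.054 FPKM in CONTROL-VEH 1 to 4, 0.200, 0.069, 0.074 and 0.064 FPKM in CONTROL-TIA 5 to 8, 0, 0.234, 0.055 and 0.109 FPKM in OGD-VEH 9 to 12, and 0.307, 0.046, 0.073 and 0 FPKM in OGD-TIA 13 to 16. The group means were 0.110, 0.102, 0.0995 and 0.106 FPKM in this order, with SDs of 0.0538 to 0.137 FPKM. No difference of *Gsdmd* or *Ripk3* between groups was detectable at this depth (padj of 0.559 or more in both OGD comparisons, limma without a filter).

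Across the comparisons within arms, 0 of 8 members were called by limma between OGD-VEH and CONTROL-VEH, where 8.44% of 16346 genes had a padj of at most 0.05 and 4.09% also at least a 2-fold change. At an unadjusted p under 0.05, 3 members were counted (*Apaf1*, *Casp9* and, from the fit without a filter, *Mlkl*), beside 5729 of the 16346 genes. Between OGD-TIA and CONTROL-TIA 0 members and 0% of all genes were called, and 1 member (*Apaf1*) had an unadjusted p under 0.05, beside 3174 of 16242 genes. In the sums of all isoforms, in 0 of 8 members did the groups not overlap in any of the 4 pairwise comparisons, where this held for 22.7% of all genes in the vehicle arm, 16.2% in the TIA arm, 2.06% between CONTROL-TIA and CONTROL-VEH and 3.81% between OGD-TIA and OGD-VEH. The shares of all genes cover those that passed the filter on low values, as 5 of the 8 members did. In the vehicle arm, 0 of 19 member isoforms tested were called, against 0.149% of all isoforms. Limma gave 4 of the 19 an unadjusted p under 0.05, beside 10124 of 53087 isoforms in all.

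No member passed the test between cultures with and without TIA. Between CONTROL-TIA and CONTROL-VEH, 0 members and 0% of all genes were called by limma, and 0 members had an unadjusted p under 0.05, beside 621 of 16170 genes. The log2 differences of the 5 expressed members ran from -0.14 (*Diablo*, 95% interval -0.49 to 0.21) to 0.18 (*Casp9*, 95% interval -0.24 to 0.59), and the narrowest interval was that of *Xiap* (0.02, 95% interval -0.15 to 0.19). Between OGD-TIA and OGD-VEH, 0 members and 0% of all genes were called, with 0 members at an unadjusted p under 0.05, beside 1293 of 16351 genes. *Apaf1* differed by 0.08 (95% interval -0.26 to 0.41), *Casp9* by 0.06 (95% interval -0.42 to 0.53), *Cycs* by -0.21 (95% interval -0.66 to 0.24), *Xiap* by 0.09 (95% interval -0.35 to 0.52) and *Diablo* by -0.07 (95% interval -0.39 to 0.25), so differences of up to 0.39 to 0.66 on the log2 scale in one of the directions lie within these intervals. Over protein-coding isoforms only, *Diablo* differed by -0.32 (95% interval -0.53 to -0.12, at 22.3 to 25 FPKM in OGD-TIA and 26.8 to 32.3 FPKM in OGD-VEH) and *Xiap* by 0.53 (SE 0.23), and neither passed (padj = 0.508 from limma for both). The *Diablo* sums include Diablo-209, at a mean of 3.12 FPKM in OGD-VEH and 0.000750 FPKM in OGD-TIA. The interaction called 0 members and 0% of all genes, and its widest interval was that of *Cycs* (-0.28, 95% interval -1.07 to 0.51). Over protein-coding isoforms only, the interaction of *Diablo* was -0.31 (95% interval -0.59 to -0.03, limma padj = 0.673).

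Around the members, 65 of 66 listed genes of the same pathways were in the table, of which 45 were tested in the vehicle arm. Of these, 2 were higher (*Tnfrsf1a* and *Lmnb1*), 1 was lower (*Sept4*) and 42 did not pass, a called share of 6.67% with a median log2 fold change of 0.30 against 0.10 over all genes. With OGD averaged over the arms, 11 of 44 were higher and 5 lower, a called share of 36.4% beside the 32.1% of all genes, with a median of 0.09 against 0.08. In the other 4 comparisons 0 were called by limma, with 2 to 10 at an unadjusted p under 0.05. Over all genes, 621 to 3174 of 16170 to 16351 tested had such a p. The vehicle count rested on all 8 cultures: without OGD-VEH 9 it was 19, without OGD-VEH 12 it was 1, and without any other culture of the comparison 0. Calls over all genes also moved, from 1380 with all 8 cultures to 4991 without OGD-VEH 9.

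Other caspases were expressed at very different levels. *Casp6*, which cleaves lamins, was at 12 ± 2.35 and 15.4 ± 3.40 FPKM in CONTROL-VEH and OGD-VEH (SD, n = 4; log2 fold change 0.35, limma padj = 0.233), and averaged over the arms it passed with length weighting (0.41, padj = 0.0263) or without OGD-VEH 9 (0.60, padj = 0.032) but not in the sums of all cultures (0.54, padj = 0.0508) or over protein-coding isoforms only (0.31, padj = 0.245). *Casp2*, an initiator caspase activated outside the apoptosome, had 29.5 ± 12.6 and 64.5 ± 36.0 FPKM (0.95, padj = 0.267). Its value in the vehicle arm was 1.53 without OGD-VEH 9 (limma padj = 0.0199) and 0.49 over protein-coding isoforms only (padj = 0.0771). Averaged over the arms *Casp2* differed by 0.83 (limma padj = 0.0883), and it rose by 0.53 with length weighting (padj = 0.0109), by 0.42 over protein-coding isoforms only (padj = 0.0106) and by 1.08 without OGD-VEH 9 (padj = 0.011). Of the inflammatory caspases, *Casp1* had 0.584 ± 0.327 and 0.821 ± 0.227 FPKM, and *Casp4*, the sensor of the noncanonical inflammasome, was listed at 0 in 8 of 16 cultures, all 4 of CONTROL-VEH among them. *Casp4* was at 0 to 0.0410 FPKM in CONTROL-TIA, 0 to 0.323 FPKM in OGD-VEH and 0.0320 to 0.219 FPKM in OGD-TIA. It had at most 10 reads in a culture and lay under the filter on low values.

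Among the inhibitors of apoptosis (IAPs) and mitochondrial factors, 2 of 8 genes tested rose and 1 fell averaged over the arms. That is a called share of 37.5% beside the 32.1% of all genes. *Birc2*, which encodes the ubiquitin ligase cIAP1, rose by 0.30 on the log2 scale (standard error 0.08, padj = 0.0165 from limma), and *Birc5*, or survivin, a protein of dividing cells, by 0.91 (standard error 0.22, padj = 0.00879). *Sept4*, of which a splice form binds XIAP, fell from 4.62 ± 1.50 FPKM in CONTROL-VEH to 1.55 ± 0.505 FPKM in OGD-VEH (log2 fold change -1.52, padj = 0.0352 from limma), but over protein-coding isoforms only the values were -0.34 (padj = 0.806) in the vehicle arm and -0.90 (padj = 0.186 from limma) averaged over the arms. *Birc6*, a large IAP, was at 106 ± 8.58 and 111 ± 5.40 FPKM, *Htra2*, a protease that like DIABLO leaves mitochondria, at 38.5 ± 3.87 and 38.1 ± 3.54 FPKM, and *Aifm1*, the apoptosis-inducing factor, at 16.1 ± 4.73 and 17.6 ± 2.68 FPKM, and none of these passed in the sums of all isoforms. Averaged over the arms, *Aifm1* passed with length weighting (0.24, limma padj = 0.017) and over protein-coding isoforms only (0.41, padj = 0.0255), against 0.10 in the sums. *Birc3* (cIAP2) was listed at 0 in 4 cultures and had at most 18 reads.

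Of the substrates and nucleases of execution, 3 of 10 rose (*Lmna*, *Lmnb1* and *Pak2*) and 1 fell averaged over the arms. The called share was 40.0%, beside 32.1% of all genes. The gene that fell was *Dffa*, the inhibitor and chaperone of the nuclease that cuts DNA between nucleosomes (-0.42 on the log2 scale, limma padj = 0.031). The nuclease itself, *Dffb*, had 8.67 ± 1.56 FPKM in CONTROL-VEH and 13 ± 4.50 in OGD-VEH and did not pass (0.24 averaged, limma padj = 0.225), but did with length weighting (0.26, padj = 0.0225) and over protein-coding isoforms only (0.42, padj = 0.00581).

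Of 16 other listed genes of necroptosis, 15 passed the filter on low values, while *Zbp1*, like *Ripk3* and *Mlkl*, did not. Of 15 genes tested, 5 rose and 2 fell averaged over the arms, a called share of 46.7% beside the 32.1% of all genes. *Tnfrsf1a*, the receptor TNFR1, rose from 7.34 ± 2.61 FPKM in CONTROL-VEH to 96.7 ± 56.0 FPKM in OGD-VEH (3.59 on the log2 scale, limma padj = 0.0193), and was at 7.14 ± 3.72 and 46.4 ± 39.9 FPKM in CONTROL-TIA and OGD-TIA (2.31, padj = 0.157). With isoforms weighted by length its value in the vehicle arm was 2.41. *Ripk1*, the kinase that recruits RIPK3, had 2.68 ± 0.912 and 4.48 ± 1.12 FPKM without and with OGD in the vehicle arm and 2.06 ± 0.524 and 3.36 ± 1.44 FPKM in the TIA arm, and rose by 0.69 averaged over the arms (padj = 0.0269 from limma). *Cflar*, which restrains caspase-8, rose by 0.67 (padj = 0.0187), and *Ticam1* and *Fadd*, adaptors of death signaling, by 0.74 and 0.45 (padj = 0.0125 and 0.0201). *Cyld*, a deubiquitinase, and *Hsp90aa1*, a chaperone, fell by 0.25 and 0.28. *Zbp1*, the nucleic acid sensor that binds RIPK3, had at most 4 reads in a culture.

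The pyroptosis list was for the most part at low levels, with 9 of 15 genes under the filter on low values. *Nlrp3*, a sensor of inflammasomes, had at most 8 reads in a culture, *Pycard*, their adaptor ASC, at most 14, and *Nlrp1a* was listed at 0 in all 16 cultures. A gasdermin that these cultures did express was *Gsdme*, which caspase cleavage activates, at 7.68 ± 0.638 and 6.19 ± 0.890 FPKM without and with OGD in the vehicle arm and 7.53 ± 0.194 and 7.65 ± 1.79 FPKM in the TIA arm (log2 fold change averaged over the arms -0.16, padj = 0.259 from limma). Without OGD-VEH 9, when calls over all genes rose from 1380 to 4991, the value of *Gsdme* in the vehicle arm was -0.41 (limma padj = 0.0405). *Irf2*, which encodes a transcription factor known to drive *Gsdmd*, rose averaged over the arms (1.65, standard error 0.31, padj = 0.00294 from limma), and over protein-coding isoforms only by 1.13 (padj = 0.017) and with length weighting by 0.94. Its summed levels were 18.8 ± 8.52 and 60.0 ± 25.2 FPKM in CONTROL-VEH and OGD-VEH (1.68, limma padj = 0.0527). In CONTROL-TIA and OGD-TIA they were 10.7 ± 5.25 and 31.6 ± 11.6 FPKM (1.63, limma padj = 0.125), so the sums passed in neither arm alone. *Irf2* was the 1 of 6 genes of the list tested that passed averaged over the arms, where 32.1% of all genes did.

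**Figure D4:**
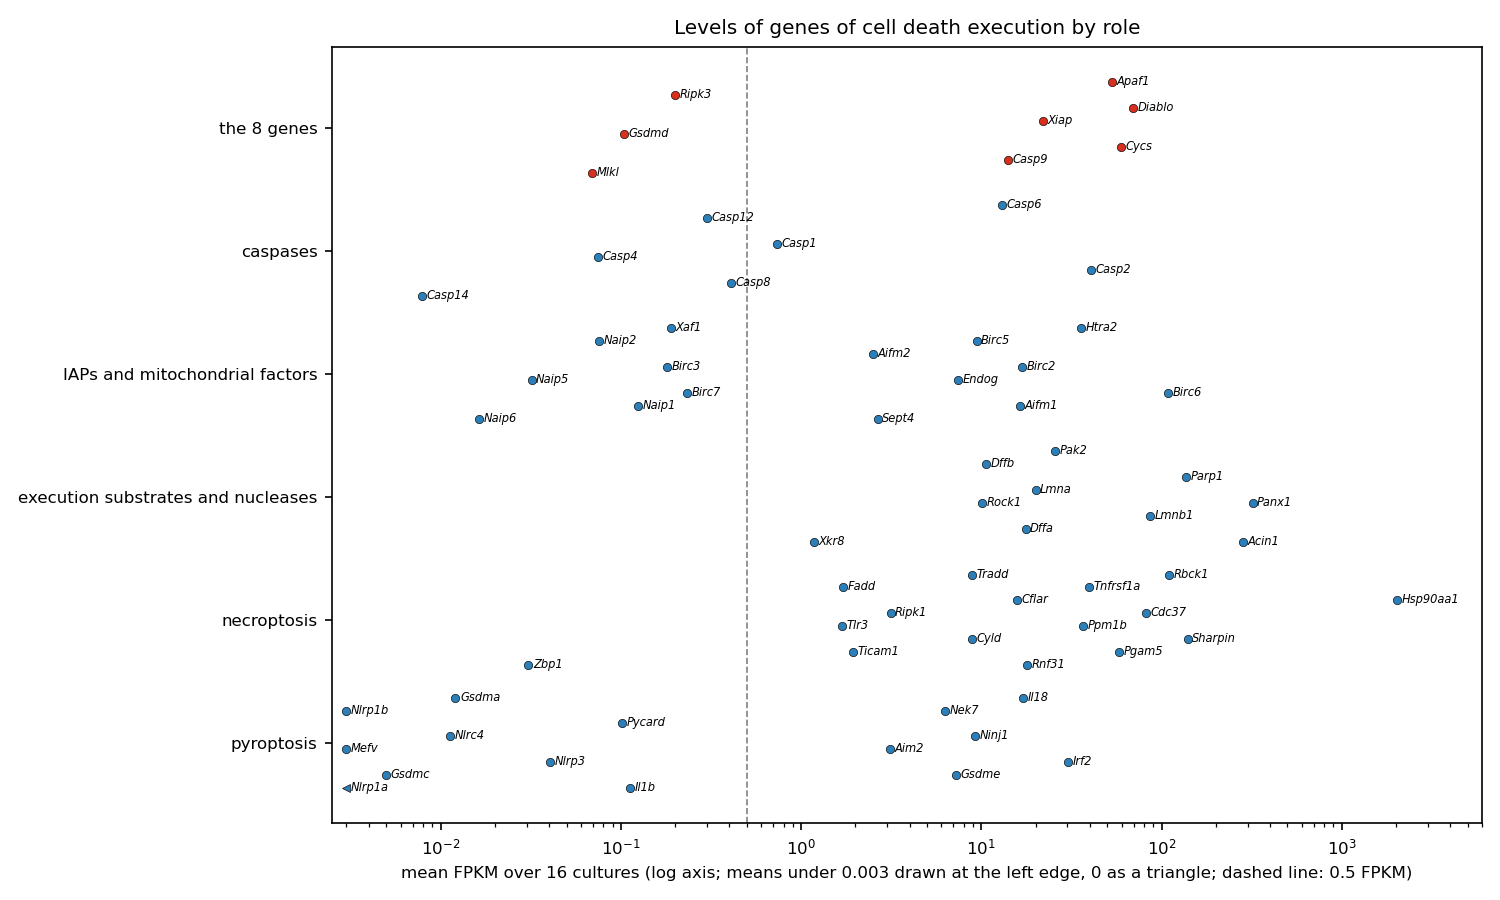
Mean FPKM over the 16 cultures (log axis) of the 8 genes (red) and of 63 other genes by role (blue), with a dashed line at the minimum of 0.5 FPKM for testing. *Ripk3*, *Mlkl* and *Gsdmd* lie left of the line with most inflammasome genes, while all 10 execution substrates and nucleases lie right of it.

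The protein-coding genes whose log2 levels over the 16 cultures were most like those of each expressed member were found among 11675 genes whose mean reached 2 FPKM. They were *Trim27* (Pearson r = 0.87) and *Zbtb8a* (0.86) for *Apaf1*, *Zfp68* (0.74) and *Togaram1* (0.73) for *Casp9*, *Timm10* (0.83) and *Slc35e4* (0.81) for *Cycs*, *Pign* (0.90) and *Nufip2* (0.87) for *Xiap*, and *Lonp1* (0.89) and *Slc25a3* (0.87) for *Diablo*. These are the highest of many correlations over cultures that share their groups and libraries, and are given as a description with no test.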

How the data were processed

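RNA of 16 cultures was sequenced by the authors' service provider as stranded libraries with 50-base single-end reads, aligned with STAR to GRCm38 (Ensembl release 92) and quantified per isoform with eXpress. The values deposited by the authors are FPKM per isoform with TMM scaling. The table had 135276 lines, of which 74 without an identifier were left out, leaving 135202 isoforms of 53679 genes; 99.89% of isoforms were found in GENCODE M21, 98.86% of these with the same start and end. The DESeq2 test used by the study needs counts and was not run. Whether eXpress used strand is not given in the sources used here.

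FPKM of isoforms were summed per gene symbol and tested as log2(FPKM + 0.1) with limma 3.58.1 in R 4.3.3 (trend, Benjamini-Hochberg adjustment over all genes), for genes whose mean reached 0.5 FPKM in the cultures of the fit. Fold changes are on this scale and understate those of low genes. The 3 genes under the filter were called from fits without it. Pairwise fits held the 8 cultures compared, and the average over both arms and the interaction held all 16. Calls had a padj of at most 0.05. Exact permutation tests were two-sided over 70 assignments (smallest p 0.0286), or 4900 within the arms. The fitting code was tested on simulated data. Depth was estimated from the steps of low FPKM values in 17654 single-isoform genes at 20.5 to 26.0 M reads per culture, and read numbers follow from it. The estimate includes the TMM scaling and lies above the number of aligned reads given in the study's methods for most cultures, so read numbers may be too high and floors too low. Floors of 3 reads cover counting error only. Promoters came from RefSeq and other sequences from the GRCm38 genome. Python 3.11.15 was used for the rest.

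Genes named were the 8 members, listed pathway genes chosen by role, and listed genes past a padj of 0.05 with at least a 2-fold change. *Birc5*, *Lmna*, *Lmnb1*, *Pak2*, *Fadd*, *Ticam1*, *Cyld*, *Hsp90aa1*, *Nlrp1a*, *Cd68* and *Aif1* were named after their values were seen. Of the genes the role list names, 2 are counted in the lists but not reported here. Members and lists were chosen with earlier results of these data known. Alternatives were other pseudocounts, filters, scaling, weights and fits, weighting isoforms by length, and leaving out each culture. Sums over protein-coding isoforms only, sums with near copies, and the isoform test averaged over the arms were added after seeing the data.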

Additional observations from a re-analysis of the deposited data

Results flagged for a closer look

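A culture stood apart from the other 3 of its group in 2 of 32 sets of 4 values tested, where the gap to the nearest value was a larger share of the range than Dixon's 95% critical value allows; chance gives about 1 in 20. *Mlkl* had 0.162 FPKM in CONTROL-TIA 8, from 3 estimated reads, and was listed at 0 in CONTROL-TIA 5, 6 and 7. *Gsdmd* had 0.200 FPKM in CONTROL-TIA 5, from 6 estimated reads, against 0.0640 to 0.0740 FPKM in the others of that group.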

How the results depend on the processing

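No paired analysis was possible because the cultures were numbered 1 to 16 across the groups and share no replicate numbers. The rise of *Apaf1* averaged over both arms passed under every alternative run. Between OGD-VEH and CONTROL-VEH, where 0 members were called, 2 were called with array quality weights (*Apaf1* and *Mlkl*), 1 with length weighting and 1 with all 16 cultures in one fit (*Apaf1* in both), and 0 to 2 without 1 culture. Averaged over the arms, 2 members were called with length weighting (*Diablo* added) or protein-coding isoforms only (*Mlkl* added), and 1 to 2 without 1 culture. Of the member isoforms averaged over the arms, 1 was called with median-ratio scaling (Apaf1-204) and 0 to 2 without 1 culture.

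Of the other pathway genes, the 3 calls between OGD-VEH and CONTROL-VEH became 1 without a filter, 23 with array quality weights, 14 with length weighting, 15 with all 16 cultures, 9 with protein-coding isoforms only and 0 to 19 without 1 culture. The 0 calls between OGD-TIA and CONTROL-TIA became 1 with length weighting, the 0 between OGD-TIA and OGD-VEH 3 with array quality weights, and the 16 averaged over the arms 25 with length weighting. Over all genes, 1380 calls between OGD-VEH and CONTROL-VEH became 47, 6344, 4145, 4619 and 2147 under the same 5 settings and 1 to 4991 without 1 culture, the most without OGD-VEH 9. Counts of 0 became 8, 193, 304, 3 and 1 between OGD-TIA and CONTROL-TIA in that order (0 to 27 without 1 culture), 4 without a filter and 1 with length weighting between CONTROL-TIA and CONTROL-VEH, 4 and 1540 without a filter and with array weights between OGD-TIA and OGD-VEH, and 3, 217 and 1 without a filter, with array weights and with protein-coding isoforms for the interaction. The causes were not tested.

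Signs turned for log2 differences that did not pass. Between OGD-VEH and CONTROL-VEH these were *Cycs* (-0.05, median-ratio scaling), *Diablo* (-0.01, array weights) and *Casp9* (-0.03, protein-coding isoforms). Between OGD-TIA and CONTROL-TIA, protein-coding isoforms gave -0.03 for *Casp9* and 0.05 for *Cycs*. Between CONTROL-TIA and CONTROL-VEH, *Cycs* was -0.13 with array weights, *Casp9* -0.06 with length weighting and -0.14 over protein-coding isoforms, and *Apaf1* -0.03 over protein-coding isoforms. Between OGD-TIA and OGD-VEH, array weights gave -0.03 for *Apaf1* and 0.00 for *Diablo*, length weighting -0.07 for *Casp9*, -0.06 for *Apaf1* and -0.03 for *Xiap*, and protein-coding isoforms -0.14 for *Casp9* and -0.13 for *Apaf1*. Averaged over the arms, *Cycs* was 0.04 with length weighting, 0.22 over protein-coding isoforms and 0.06 with its copy, and *Casp9* -0.03 over protein-coding isoforms. For the interaction, *Apaf1* was 0.02 with median-ratio scaling, *Casp9* 0.02 with array weights and 0.01 over protein-coding isoforms, *Xiap* -0.10 with length weighting, and *Diablo* -0.07 and -0.31 with length weighting and protein-coding isoforms. Without 1 culture, signs turned for *Cycs* between OGD-VEH and CONTROL-VEH (-0.20 to 0.16), for *Apaf1* (-0.05 to 0.23), *Cycs* (-0.17 to 0.26) and *Xiap* (-0.01 to 0.05) between CONTROL-TIA and CONTROL-VEH, for *Casp9* (-0.04 to 0.24), *Apaf1* (-0.02 to 0.15), *Xiap* (-0.09 to 0.19) and *Diablo* (-0.17 to 0.01) between OGD-TIA and OGD-VEH, and for *Casp9* (-0.24 to 0.07), *Apaf1* (-0.15 to 0.12), *Xiap* (-0.10 to 0.17) and *Diablo* (-0.05 to 0.18) in the interaction.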
